A study of Mus musculus with 18 samples.

Results

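Notch1 peaks of T cell acute lymphoblastic leukaemia (T-ALL) that lie in regions of changed H3K4me3 and in no region of changed H3K27me3 were described by their position, their surroundings and their overlap with another mark, H3K9ac. The peaks were chosen from the authors' region lists. A peak on an autosome was taken when it shared 1 bp or more with a region listed for H3K4me3 in T-ALL against normal thymocytes, in either display colour, and shared no base with a region listed for H3K27me3. This gave 1423 peaks of 14541 on the autosomes and 14569 in all, a share of 9.79% of the autosomal peaks (95% Clopper-Pearson interval 9.31 to 10.3). They are called H3K4me3-only peaks here. The other autosomal peaks were 581 in regions of both marks, 2776 in H3K27me3 regions only and 9761 in neither. Intervals on shares cover counting error only, since every peak comes from 1 Notch1 library.

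Notch1 is a receptor whose intracellular part, Notch1-IC, moves to the nucleus once it is cut free. There it is held on DNA by the factor RBPJ and recruits coactivators to promoters and enhancers. In the thymus Notch1 directs progenitors into the T cell lineage, its signal is low by the CD4+ CD8+ double-positive stage, and sustained activity drives T-ALL. H3K4me3, trimethylation of lysine 4 on histone H3, marks active and poised promoters. H3K27me3 is the repressive mark of Polycomb repressive complex 2, and H3K9ac, an acetylation, accompanies active promoters and enhancers.

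The series holds 18 mouse libraries, 10 from tumours overexpressing Notch1-IC (T-ALL) and 8 from double-positive (DP) thymocytes of normal thymus. T-ALL has 2 libraries each for H3K27me3, H3K4me3, H3K9ac and the micrococcal nuclease input, and 1 each for Notch1 and the sonicated input. DP has 2 libraries each for the 3 marks and the nuclease input, and none for Notch1. Both cell types were fixed alike. Histone marks were assayed on nuclease-digested mononucleosomes and Notch1 on sonicated chromatin. The sources used here do not give the vector that drives Notch1-IC, the host strain, the age of the animals or the number of tumours behind each library. Where nothing says that libraries come from separate animals, replicates may be technical. The lists give positions and a display colour without a value per library, so cell identity could not be checked against marker genes, depth is unknown and no test between samples was possible.

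Nearly all H3K4me3-only peaks lay in red regions. Each H3K4me3 region is drawn in red or green. Neither the labels nor the track headers tie a colour to a gain or a loss in T-ALL, so regions are reported by colour. Of the 1423 peaks, 1341 (94.2%, 92.9 to 95.4) met red regions alone, 61 (4.29%, 3.29 to 5.47) met green regions alone, and 21 (1.48%, 0.916 to 2.25) met both. Together 1362 peaks (95.7%) met a red region, beside 13.3% of all autosomal Notch1 peaks, and 82 (5.76%) met a green one, beside 0.674% of all autosomal peaks. Every H3K4me3-only peak meets a region of some colour by the rule, so shares above those of all peaks are tied to it. Peaks in both marks were alike, with 569 of 581 (97.9%, 96.4 to 98.9) meeting a red H3K4me3 region and 2.75% (1.58 to 4.43) a green one. Red made up 52.4% of the autosomal H3K4me3 regions. The colour comes from the comparison that chose the peaks, so these shares are a description and carry no test. On every one of the 19 autosomes, at least 90% of the H3K4me3-only peaks met a red region.

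Seen from the regions, 1350 of 11075 autosomal red H3K4me3 regions held an H3K4me3-only peak (12.2%, 11.6 to 12.8), and 87 of 10052 green ones did (0.865%, 0.694 to 1.07). Over both colours 9.56% of the regions held a Notch1 peak of any class. A peak met 1 region in 1386 cases and 2 regions in 37, and 23 regions, all red, held 2 H3K4me3-only peaks.

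Red regions sat on the peaks, and green regions sat beside them. The centre of a red region lay a median of 138 bp from the centre of the Notch1 peak it met (quartiles 62.5 and 262 bp, 1373 pairs), against 525 bp for a green region (quartiles 450 and 681 bp, 87 pairs). The peak centre fell inside the red region in 1129 of the 1373 red pairs (82.2%, 80.1 to 84.2) and inside the green region in 12 of 87 green pairs (13.8%, 7.34 to 22.9). In 370 red pairs the region lay wholly inside the peak, in 185 the peak lay wholly inside the region, in 4 both had the same ends, and 814 overlapped in part. Of the green pairs, 84 overlapped in part, 2 regions lay inside the peak and 1 peak lay inside the region.

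**Figure D1:**
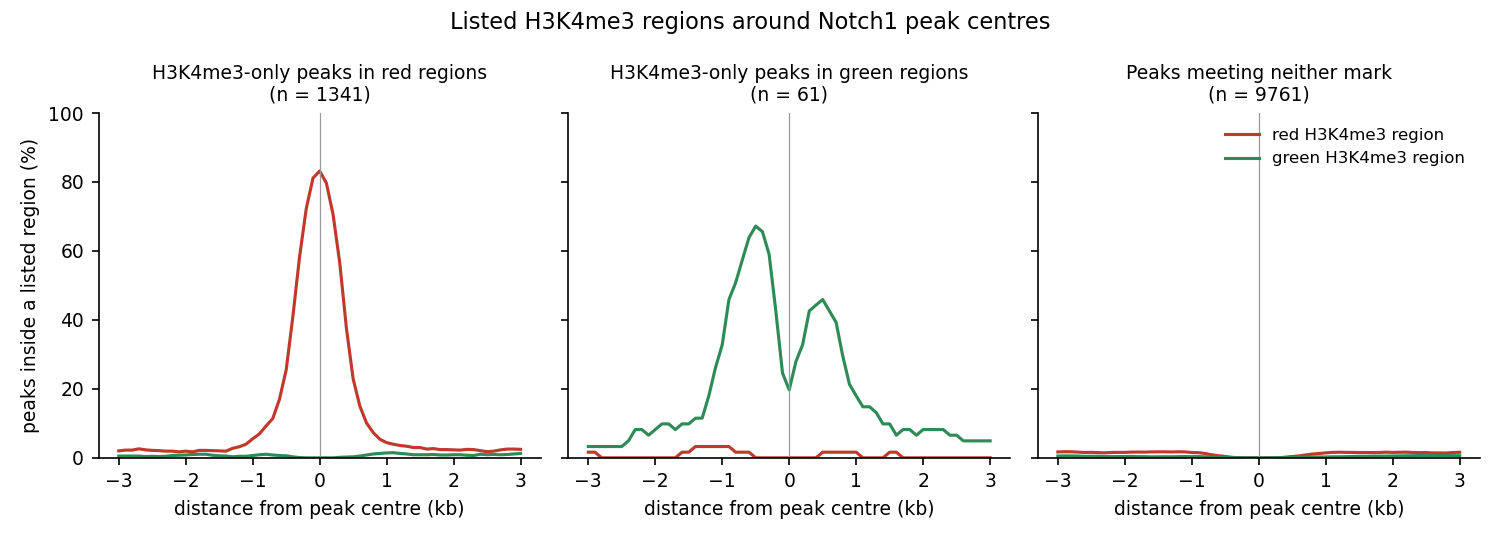
Share of Notch1 peaks (%) whose surroundings at each distance from the peak centre (kb, step 100 bp) lie in a red or a green listed H3K4me3 region. Red coverage is highest at the centre (83.2%) of the 1341 peaks in red regions, and green coverage of the 61 peaks in green regions is 19.7% at the centre and higher on both sides, while peaks in neither mark have 0 at the centre because of how they were chosen.

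The profile of listed regions around the peak centres shows the same arrangement in steps of 100 bp. Among the 1341 peaks in red regions alone, 83.2% of the centres lay in a red region, and 100 bp to either side the shares were 81.1% and 79.7%. At 3 kb on either side 2.01% and 2.46% were in a red region. Among the 61 peaks in green regions alone, 12 centres (19.7%) lay in a green region, 41 peaks (67.2%) had one 500 bp to the left and 28 (45.9%) had one 500 bp to the right. In this class 5 peaks met 2 green regions. Within 500 bp of the centre, green coverage was lowest at the centre and highest 500 bp away, beyond the end of a peak of the median width, 600 bp.

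**Figure D2:**
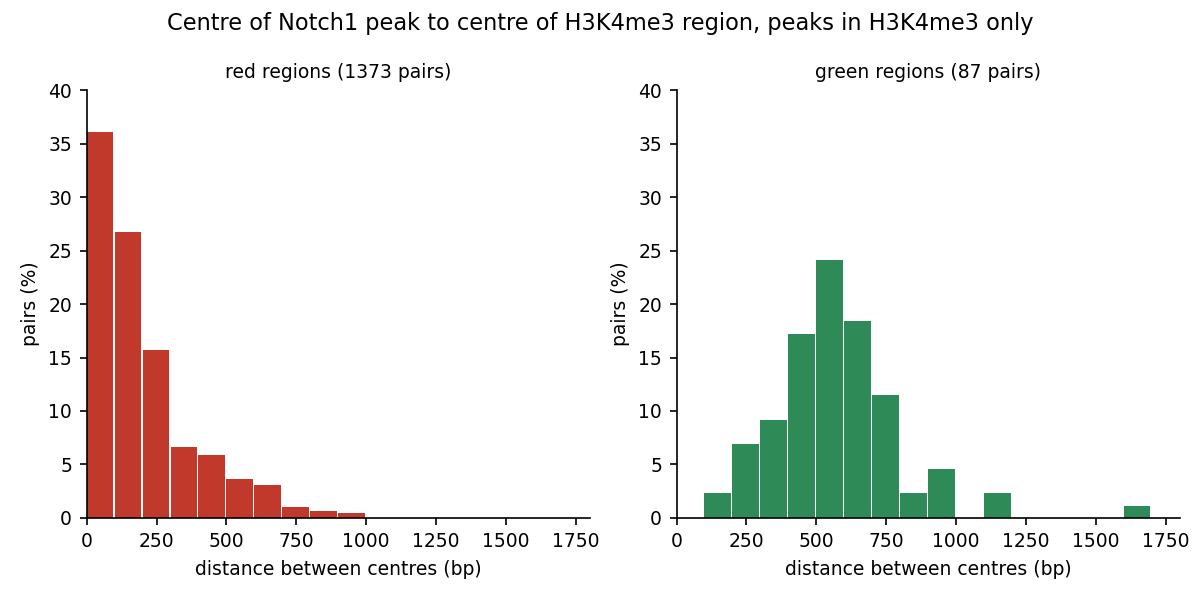
Distance (bp) between the centre of an H3K4me3-only Notch1 peak and the centre of the H3K4me3 region it shares bases with, as a share of pairs (%) in steps of 100 bp, for 1373 red and 87 green pairs. The first step holds 36.1% of the red pairs and 0 of the green pairs, and the green pairs are most frequent between 500 and 600 bp (24.1%).

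As a share of the largest distance at which a peak and a region of their widths would still touch, the median offset was 0.194 for red and 0.774 for green pairs, where 0 puts the centres together. The shared stretch was correspondingly longer in red pairs, with a median of 525 bp, than in green pairs, with 175 bp. Of the width of a peak, a median of 71.0% was covered where it met red alone and 30.0% where it met green alone. Notch1 peaks in regions of both marks had a like layout, with medians of 175 bp for 577 red H3K4me3 pairs and 575 bp for 17 green ones. For H3K27me3, whose listed regions H3K4me3-only peaks do not meet by the rule, peaks in regions of that mark only had medians of 175 bp for 2773 red pairs and 562 bp for 83 green ones.

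The 10 broadest H3K4me3-only peaks all met red regions alone, as did 94.2% of all H3K4me3-only peaks. The broadest was 2550 bp wide at chr14:34767751-34770300 (mm9), and it met a red region of 1175 bp, chr14:34767501-34768675, at its left end with 925 bp shared. The next, 2475 bp at chr4:116781676-116784150, also carried its red region of 825 bp at the left end. At chr16:4084026-4086150 (2125 bp) the red region of 750 bp lay wholly inside the peak, 538 bp from its centre. A further peak of 2125 bp, chr17:27252501-27254625, enclosed a red region of 675 bp. The others of the 10 were 1800 to 1975 bp wide. Red regions covered 27.0% to 81.9% of these peaks, and in 6 of the 10 the peak centre lay outside the region. The most covered was chr7:112901901-112903700, 1800 bp wide, with 1475 bp in a red region of 1575 bp.

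Peaks in green regions alone were narrower. Their median width was 600 bp (quartiles 550 and 700, widest 1025, n = 61), against 725 bp for those in red regions alone (quartiles 575 and 900, widest 2550, n = 1341). The widest peak in green, chr9:107472326-107473350, shared 125 bp with a green region of 725 bp that reached over its left end. The second, chr4:150708751-150709725 (975 bp), shared 100 bp with a green region of 700 bp, again over the left end. In contrast, at chr1:34516301-34517150 (850 bp) a green region of 500 bp covered 175 bp at the right end. Of the 10 widest peaks in green, 9 had their centre outside the green region. The exception was chr19:5425776-5426625 (850 bp), with 550 bp in a green region of 700 bp.

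The 21 peaks that met both colours lay across a change of colour. The peak centre fell in the red region in 13 of them, in the green region in none and in neither in 8. The gap between the red and the green region had a median of 125 bp (quartiles 25.0 and 275, highest 500), and in 4 cases the regions adjoined. At chr7:125848726-125849425, 700 bp wide, a green region ended at 125848825 and a red one ran from 125848826 to 125849375, so that the red region lay inside the peak with its centre 25.0 bp from the peak centre. The same order was seen at chr1:177555176-177555850, where a green region ended at 177555275 and a red region of 300 bp followed at once. The widest of the 21, chr12:88288526-88289400 (875 bp), had red over its left end for 225 bp and green over its right end for 150 bp. At chr12:74686126-74686625 the green partner was the broadest H3K4me3 region that held any H3K4me3-only peak, 3150 bp wide, and shared 175 bp with the peak.

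Of the 10 broadest H3K4me3 regions with an H3K4me3-only peak, 7 were red and 3 green, beside 1350 red and 87 green among all 1437 such regions. The broadest red one, chr3:58218976-58220900 (1925 bp), held a peak of 550 bp whose centre lay 37.5 bp from its own. The red region chr8:122393101-122394850 (1750 bp) enclosed a peak of 975 bp at the same distance. In the red region chr3:122431651-122433550 (1900 bp) the peak of 525 bp was inside but off centre by 538 bp.

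The H3K4me3-only peaks were intermediate in width. Their median of 725 bp (quartiles 575 and 875) stood beside 775 bp for peaks in both marks, 700 bp for peaks in H3K27me3 regions only and 650 bp for peaks in neither. They made up 7.73% (7.00 to 8.51) of the peaks of 500 to 600 bp and 21.3% (14.4 to 29.6) of the 122 peaks of 1500 bp and wider. A wider peak meets a region more easily, so width is tied to the way the peaks were chosen. Peaks in green regions alone did not rise in this way, but the counts were small. They made up 0.482% (24 of 4981) of the peaks of 500 to 600 bp and 0.530% (28 of 5282) of those of 600 to 800 bp. The share was 0.246% (8 of 3255) at 800 to 1000 bp, 0.111% (1 of 901) at 1000 to 1500 bp and 0 of the 122 widest.

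The share of red regions with a peak differed by region width. Of red regions under 500 bp, 2.12% (1.33 to 3.19) held an H3K4me3-only peak. The share was 12.2% (11.1 to 13.3) at 500 to 600 bp, 16.0% (14.2 to 18.0) at 700 to 800 bp and 11.3% (9.30 to 13.5) at 1000 bp and wider. For Notch1 peaks of any class the share was 16.5% (15.3 to 17.7) at 500 to 600 bp and 22.1% (19.5 to 24.9) at 1000 bp and wider. In green regions the share with an H3K4me3-only peak was also lowest under 500 bp, at 0.182% (1 of 548, 0.00462 to 1.01). It was 1.28% (16 of 1250, 0.733 to 2.07) at 700 to 800 bp and 1.13% (0.715 to 1.68) at 1000 bp and wider. A wider region can meet a peak more easily, and the part of this in these shares was not tested.

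Few red regions with an H3K4me3-only peak had a green H3K4me3 region nearby. A green region lay within 2 kb of 90 of these 1350 red regions (6.67%, 5.39 to 8.13), against 2285 of 8140 red regions that met neither a Notch1 peak nor an H3K27me3 region (28.1%, 27.1 to 29.1). The difference was -21.4 percentage points (Newcombe 95% interval -23.0 to -19.7), and the share was lower with a peak on 19 of 19 autosomes. The regions with a peak were wider (medians 675 and 600 bp). Among regions 500 to 800 bp wide the difference was smaller, with shares of 5.83% (56 of 960) with a peak and 20.7% (1090 of 5277) without. At all widths, the shares with green within 500 bp were 3.41% (2.51 to 4.52) with an H3K4me3-only peak and 17.6% (16.7 to 18.4) without. The median distance to the nearest green region was 49912 bp with a peak and 34338 bp without, and the lower quartiles were 15219 bp and 1144 bp. Peaks in both marks also had few green neighbours. Counted by peak, a green H3K4me3 region lay within 2 kb of 4.92% (66 of 1341, 3.83 to 6.22) of H3K4me3-only peaks in red regions alone and of 3.36% (19 of 565, 2.04 to 5.20) of both-mark peaks in red H3K4me3 regions alone, with overlapping intervals. Another red region lay within 1 kb of 8.00% (6.61 to 9.58) of the regions with a peak and 7.00% (6.46 to 7.58) of those without, so the intervals overlapped. The rule keeps H3K27me3 regions off the peak and not off the whole red region. Red regions with a peak were therefore not filtered for H3K27me3, unlike those without, so the sets differ in this too. Colours come from the comparison that chose the peaks, and regions of 1 list share their libraries, so these differences are descriptions.

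**Figure D3:**
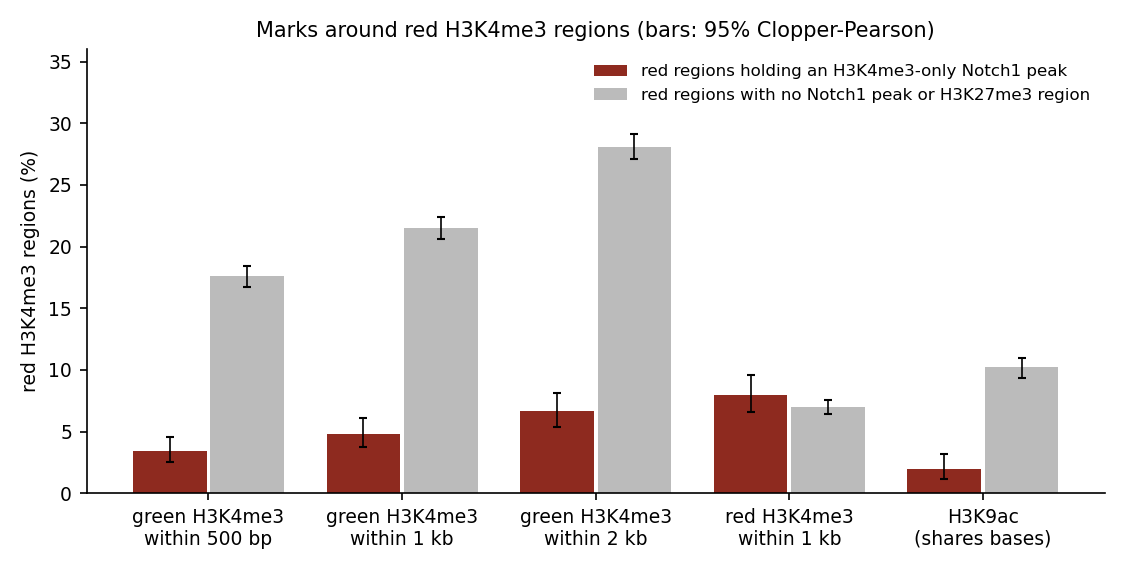
Share of red H3K4me3 regions (%) with a green or another red H3K4me3 region nearby, or sharing bases with H3K9ac (on the 11 chromosomes of that list), for red regions holding an H3K4me3-only Notch1 peak and for red regions with neither a Notch1 peak nor an H3K27me3 region; lines are 95% Clopper-Pearson intervals. The shares with green within 2 kb are 6.67% and 28.1%, and those with another red region within 1 kb are 8.00% and 7.00%. Regions holding a peak were not filtered for H3K27me3.

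A lower share of red regions met H3K9ac, a mark the rule did not use, with an H3K4me3-only peak than without. This counts shared bases, unlike the green neighbours above. The list of H3K9ac regions has rows on 11 chromosomes, and whether it was cut short is not stated, so each H3K9ac share counts listed regions only and could differ with a complete list. On the 11 chromosomes that the H3K9ac list covers (1, 2, 3, 4, 6, 7, 9, 11, 16, 17 and 19), 16 of 818 red H3K4me3 regions with an H3K4me3-only peak shared bases with H3K9ac (1.96%, 1.12 to 3.16). Of 5050 red regions with neither a Notch1 peak nor H3K27me3, 513 did (10.2%, 9.34 to 11.0), and over all red regions on these chromosomes the share was 7.80%. The difference was -8.20 percentage points (Newcombe 95% interval -9.35 to -6.76), and the share was lower with a peak on 11 of 11 chromosomes. The counts per chromosome were small with a peak, from 0 on chromosomes 1, 2, 6 and 9 to 5 on chromosome 7. Regions of 1 list share their libraries, so this difference too is a description. Among regions 500 to 800 bp wide the share was 0.667% (4 of 600) with a peak and 6.87% (224 of 3262) without. Here too the regions with a peak were not filtered for H3K27me3. For green regions the order was the reverse, with 16 of 53 (30.2%, 18.3 to 44.3) meeting H3K9ac where an H3K4me3-only peak was present and 828 of 6292 (13.2%, 12.3 to 14.0) where neither a Notch1 peak nor H3K27me3 was. Green regions with a peak were wider than those without (medians 775 and 700 bp) and were not compared at like width. By peak, H3K9ac was met by 0.567% (2 of 353, 0.0687 to 2.03) of peaks in both marks. For H3K4me3-only peaks in red regions alone it was 1.35% (0.675 to 2.40), beside 0.421% of all Notch1 peaks on these chromosomes. The intervals of the 2 classes overlapped. These shares count peaks, so they do not show whether the low share of red regions is particular to H3K4me3-only peaks.

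Counted by peak, 24 of 866 H3K4me3-only peaks on these chromosomes shared bases with H3K9ac (2.77%, 1.78 to 4.10), beside 0.421% of all Notch1 peaks there. Among H3K4me3-only peaks no narrower than the median of all Notch1 peaks it was 1.59% (8 of 502, 0.690 to 3.12). The other peaks gave 14 of 8164 (0.171%, 0.0938 to 0.288), a difference of 2.60 percentage points (Newcombe 95% interval 1.69 to 3.92). By class these were 2 of 353 in both marks, 2 of 1783 in H3K27me3 regions only and 10 of 6028 in neither. These peaks were chosen for meeting H3K4me3 regions, of which 7.80% of the red ones met H3K9ac, and the part of this in the difference was not tested. Within the H3K4me3-only peaks the share was 44.4% (4 of 9) where both colours were met, 22.0% (9 of 41, 10.6 to 37.6) in green regions alone and 1.35% (11 of 816, 0.675 to 2.40) in red regions alone.

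**Figure D4:**
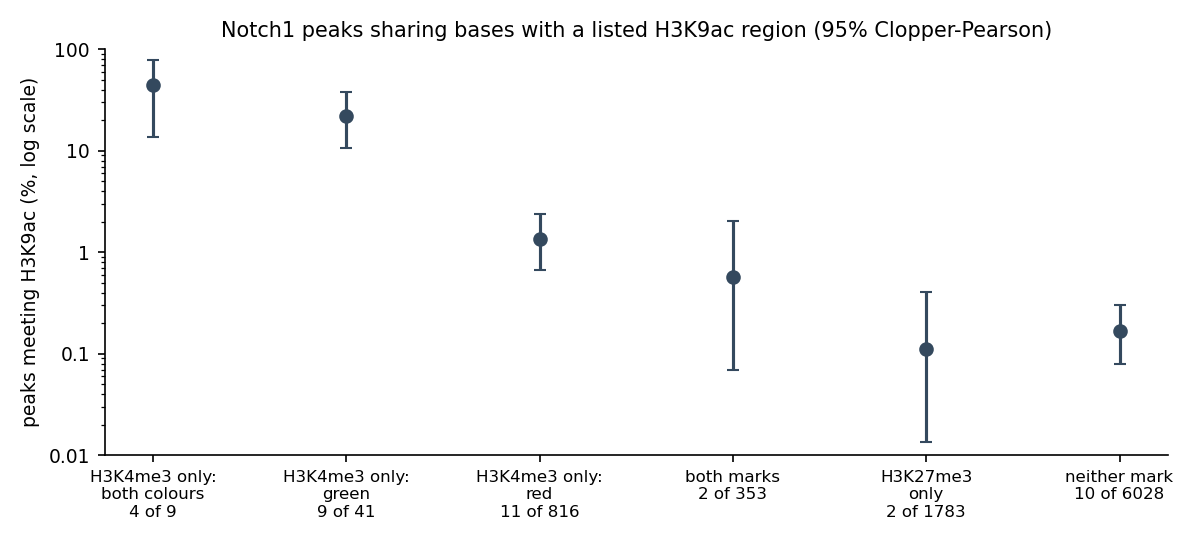
Share of Notch1 peaks (%, log axis) that share bases with a listed H3K9ac region on the 11 chromosomes of that list, for the 3 colour classes of H3K4me3-only peaks and the 3 other classes of peaks; lines are 95% Clopper-Pearson intervals and counts stand under each class. Peaks in green regions (22.0%) and peaks meeting both colours (44.4%) lie above those in red regions alone (1.35%).

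Both colours of H3K9ac were present among the 24 peaks, 14 with red and 10 with green. The H3K9ac list itself holds 926 red and 952 green regions. The peak centre lay in the H3K9ac region in 14 of the 24 peaks. Green H3K4me3 alone went with green H3K9ac in 4 peaks and with red in 5, and red H3K4me3 alone went with green H3K9ac in 4 and with red in 7. Where both H3K4me3 colours were met, H3K9ac was green in 2 peaks and red in 2. The widest peak with green in both marks, chr9:44143151-44144025 (875 bp), shared 375 bp with H3K4me3 and 575 bp with H3K9ac. At chr6:67325751-67326600 (850 bp) the same 2 colours covered 300 bp and 375 bp of the left end.

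Single peaks differed in how the 2 marks lay. The peak chr16:35938426-35939200 (775 bp) had a green H3K4me3 region at each end, 1425 and 850 bp wide, and enclosed a red H3K9ac region of 325 bp whose centre lay 100 bp from its own. A like arrangement was seen at chr2:92755176-92755750, with green H3K4me3 at both ends and a red H3K9ac region of 675 bp sharing 500 bp with the peak. In contrast, chr11:119464351-119465075 (725 bp) lay wholly inside a red H3K4me3 region of 1050 bp and a green H3K9ac region of 925 bp with the same centre as the peak. Likewise chr7:30768826-30769350 (525 bp) lay wholly inside red H3K4me3 and green H3K9ac, and chr11:74645101-74645625 (525 bp) wholly inside red regions of both.

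The peaks share no base with a listed H3K27me3 region by the rule, which does not show that they lack the mark. The shares with a listed region of either colour nearby were close to those of peaks in neither mark. An H3K27me3 region lay within 1 kb of 78 peaks (5.48%, 4.36 to 6.79), within 5 kb of 219 (15.4%, 13.6 to 17.4) and within 10 kb of 358 (25.2%, 22.9 to 27.5). Peaks in neither mark gave 4.45%, 13.8% (13.2 to 14.5) and 23.0% at the same distances. Within 5 kb a red H3K27me3 region lay near 176 H3K4me3-only peaks (12.4%, 10.7 to 14.2), beside 12.1% (11.5 to 12.8) of peaks in neither mark, and a green one near 70 (4.92%, 3.85 to 6.17), beside 3.63% (3.26 to 4.02). Within 1 kb a green H3K27me3 region lay near 2.46% (1.72 to 3.40) of H3K4me3-only peaks and 1.21% (1.00 to 1.45) of peaks in neither mark, and a red one near 3.37% (2.50 to 4.45) and 3.50% (3.15 to 3.89). The median distance to H3K27me3 was 35500 bp for H3K4me3-only peaks and 36650 bp for peaks in neither mark. Peaks in green regions alone had H3K27me3 within 5 kb in 4 of 61 cases (6.56%, 1.82 to 15.9), and those in red regions alone in 215 of 1341 (16.0%, 14.1 to 18.1).

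The share of H3K4me3-only peaks with a Notch1 neighbour was close to that of all peaks at 5 kb and higher than that of peaks in neither mark at 1 kb. Another Notch1 peak lay within 5 kb of 496 (34.9%, 32.4 to 37.4), beside 33.9% of all autosomal peaks. Within 1 kb there was one for 229 H3K4me3-only peaks (16.1%, 14.2 to 18.1), beside 13.6% (10.9 to 16.7) of peaks in both marks, 14.7% (13.4 to 16.1) of those in H3K27me3 regions only and 11.5% (10.9 to 12.2) of those in neither. By colour, the share of H3K4me3-only peaks with a neighbour within 5 kb was 36.7% (34.1 to 39.3) in red regions alone, 6.56% (4 of 61, 1.82 to 15.9) in green regions alone and 0 of 21 where both colours were met. A further H3K4me3-only peak was the neighbour, or among the neighbours, for 142 (9.98%, 8.47 to 11.7), and a peak in neither mark for 399 (28.0%, 25.7 to 30.5). Of the peaks in neither mark, 5.55% (5.11 to 6.03) had an H3K4me3-only peak within 5 kb. Of those in H3K27me3 regions only, 1.69% (1.25 to 2.25) did, and 25.0% (23.4 to 26.6) had another peak of that same class.

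Linked at 5 kb, 142 of the H3K4me3-only peaks formed 66 runs and 1281 stood alone. Of the runs 58 held 2 peaks, 6 held 3 and 2 held 4. Every peak in the 8 runs of 3 or more was in red regions alone, beside 94.2% of all H3K4me3-only peaks. The run of 4 at chr11:120671001-120680625 spanned 9625 bp with 6 Notch1 peaks in all, 4 red H3K4me3 regions and 0 listed green, H3K27me3 or H3K9ac regions. The other run of 4, chr5:145603226-145612350, spanned 9125 bp with 4 red regions and 0 green or H3K27me3 regions, on a chromosome where the H3K9ac list has no rows. The tightest run of 3 spanned 2275 bp, chr5:110532376-110534650, and had 2 red regions. In the 23 red regions that held 2 H3K4me3-only peaks each, the peaks were 0 to 550 bp apart and the regions 500 to 1350 bp wide. The widest of them, chr17:56557901-56559250, held peaks of 625 and 500 bp, 550 bp apart, at its ends.

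At the edges of the rule, 18 H3K4me3-only peaks shared 25 bp, the step of the lists, with H3K4me3, 14 in red and 4 in green, and 30 peaks in neither mark lay within 25 bp of a region without sharing a base. One of the first kind was chr2:29966126-29967000, 875 bp wide, which shared its first 25 bp with a red region. Just outside was chr2:167887151-167888050, 900 bp wide, which adjoined a red region that ended at 167887150. On the side of H3K27me3, 2 H3K4me3-only peaks lay within 25 bp of a region of that mark, at chr6:4696526-4697275 and chr7:52588101-52588675, and 3 peaks fell among those in both marks by sharing 25 bp of it, all with red H3K27me3.

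H3K4me3-only peaks took a like share of the Notch1 peaks on each autosome. The share was lowest on chromosome 1, with 56 of 697 peaks (8.03%, 6.13 to 10.3), and highest on chromosome 17, with 93 of 766 (12.1%, 9.91 to 14.7). The largest numbers were 127 on chromosome 4 and 123 each on chromosomes 5 and 7, which also had among the most Notch1 peaks (1265, 1279 and 1159). The smallest was 35, of 380 peaks, on chromosome 18.

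**Figure D5:**
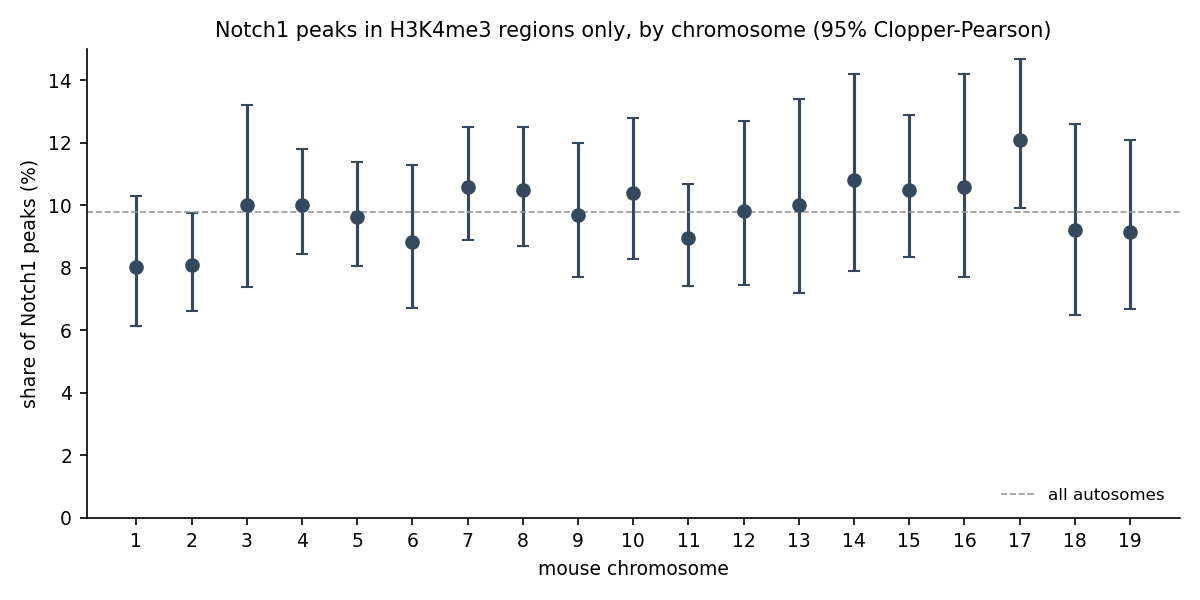
Share of the Notch1 peaks (%) of each mouse autosome that are H3K4me3-only peaks, with 95% Clopper-Pearson intervals; the dashed line is the share over all autosomes, 9.79%. The points run from 8.03% on chromosome 1 to 12.1% on chromosome 17.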

How the data were processed

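Cells and libraries were as described above. Reads were aligned with BWA to NCBIM37 (mm9), per the submitters' processing notes. The sources used here do not name the peak caller, its cutoffs, how inputs entered or whether replicates were pooled. Every row of the deposited lists carries the same BED score, 1000, which was not used. All starts and widths are multiples of 25 bp, and coordinates are printed with 1-based starts. Overlaps, gaps, medians and intervals were computed with Python 3.11.15, pandas 2.3.3, SciPy 1.17.1 and statsmodels 0.14.6, and the overlap code was tested on simulated data.

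No test was made: the peaks come from 1 library, regions are not replicates, and the lists hold no values per library. No annotation or genome of mm9 was used, so genes, promoters and motifs were not analysed here. Regions named in the text come from the 10 widest peaks or H3K4me3 regions of a kind, the 20 widest peaks meeting H3K9ac, runs of 3 or more peaks, peaks or regions at the edge of the rule, and the 23 regions holding 2 peaks, which were named after their values were seen. The peaks, lists and comparisons were chosen with earlier results of these data known. Alternatives were stricter overlap, width limits, merging, other distances and other chromosome sets.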

Additional observations from a re-analysis of the deposited data

How the results depend on the processing

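Of 35 alternatives, 17 left the value close to the one reported and 18 moved it, mostly by construction. The number of H3K4me3-only peaks was 855 with Notch1 peaks at or above the median width, 818 with H3K4me3 regions at or above theirs, and 866 on the 11 H3K9ac chromosomes. The share meeting red was 98.7%, 97.3% and 93.2% with 50% of the peak covered, wider peaks and wider regions. The share meeting H3K9ac was 1.59% with wider peaks. H3K27me3 lay within 1 kb and 10 kb of 5.48% and 25.2%, and another Notch1 peak of 16.1% and 48.8%. Red regions holding a Notch1 peak made up 13.4% below 600 bp and 20.3% from 600 bp, and 11.8% and 16.5% with 50% of the region covered. At 500 to 800 bp, green within 2 kb was 5.83% with an H3K4me3-only peak and 20.7% without, and H3K9ac 0.667% and 6.87%. Green within 1 kb was 4.81% and 21.5%. The median offset stayed between 112 and 138 bp for red and between 462 and 525 bp for green. The comparisons of red regions and the offsets were added after seeing the data, as was the H3K9ac chromosome set. No paired analysis was possible because the files give regions per comparison and nothing per replicate, and so no replicate was left out. Motif and start-site alternatives were not run. Depth is unknown, so a region missing from a list is not shown to lack the mark.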

Other observations

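The X chromosome was outside the rule. It held 28 Notch1 peaks, of which 2 met an H3K4me3 region and no H3K27me3 region, both in red, 7 met H3K27me3 alone, 19 met neither and 0 met both. The Y chromosome held 0 Notch1 peaks.

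Around H3K4me3-only peaks the few H3K9ac regions were spread over both sides of the centre. On the 11 chromosomes of that list, 7 of 866 centres lay in red and 7 in green H3K9ac. The highest counts were 9 peaks 300 bp to the left and 11 peaks 500 bp to the right for red, and 9 peaks 200 bp to the left and 6 peaks 100 bp to the right for green. The median distance to the nearest H3K9ac region was 142438 bp for H3K4me3-only peaks, 193175 bp for peaks in both marks, 227950 bp for those in H3K27me3 regions only and 158400 bp for those in neither.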
